A study of Gorilla gorilla gorilla with 14 samples.

Results

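The regions described here are those whose closest listed gene is MYT1, MYT1L, ST18, REST, RCOR1 or RCOR2, and which carry a position in the gorilla genome. They were 37 of the 204249 regions with a gorilla position, 4 of them promoter regions (listed at most 1000 bp from the gene) and 33 distal. MYT1L had 11 regions, ST18 had 18, RCOR2 had 4, REST had 3 and RCOR1 had 1, while MYT1 had none. The assay was ATAC-seq on bulk sorted cells, which reads out where a transposase can insert into DNA and so where chromatin is open. Cells came from gorilla cerebral organoids by flow cytometric sorting. These organoids are brain-like cultures, here grown from the single induced pluripotent stem cell line GC1, at week 8. The sorted groups were apical radial glia (aRG, 3 libraries), basal radial glia (bRG, 2), basal intermediate progenitor cells (bIP, 5) and neurons labelled BCL11B+ (N, 4). All groups share line and age, and no group was treated or genetically altered according to the labels. Whether the libraries within a group derive from different cultures is not stated. The p-values therefore measure only how these libraries spread, which may be technical. Of the pairs within a group, aRG replicates 1 and 2 and bIP replicates 1 and 2 differed by little more than counting error. Their chi-square per degree of freedom was 1.08 and 1.09, against 1.49 to 12.2 in the other pairs. They are counted here as separate libraries.

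Apical radial glia are the stem cells of the ventricular lining of the developing cortex, basal radial glia have left that lining, and intermediate progenitors divide to give neurons. MYT1, MYT1L and ST18 are sister zinc finger proteins. MYT1L is made in neurons, where it silences genes of other cell types through SIN3 and histone deacetylases, and Notch pathway genes are among its known targets. REST does the reverse: in cells that are not neurons it binds neuronal genes and recruits SIN3A and the CoREST complex, built on the scaffolds RCOR1, RCOR2 or RCOR3 with the demethylase KDM1A and the deacetylases HDAC1 and HDAC2. REST is lost as neurons form.

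Library totals ran from 12834983 to 26660427 counts, and a floor of 3 counts equalled 0.113 to 0.208 CPM (counts scaled to library size by TMM). The library numbers in the labels form 2 series, and both bRG libraries fall in the second. Promoter accessibility of 5 shared radial glia markers (SOX2, PAX6, HES1, NES, VIM) summed to 275 to 285 CPM in the aRG libraries, 225 to 244 in those of bRG, 100 to 178 in bIP and 72.0 to 92.0 in neurons. The 5 cortical neuron markers (NEUROD2, NEUROD6, BCL11B, TBR1, STMN2) summed to 62.0 to 79.8, 71.6 in both, 144 to 240 and 143 to 216 CPM in the same order. BCL11B itself, which labels the N group, had 20.3 ± 3.80 CPM in N and 19.7 ± 3.50 in aRG (adjusted p = 0.757). Sums of the 4 measured intermediate progenitor markers were highest in bIP, at 116 to 209 CPM against 53.3 to 95.2 over the other groups. The 5 basal radial glia markers (HOPX, FAM107A, TNC, PTPRZ1, SLCO1C1) were not higher in the group of that name, with sums of 102 to 104 CPM in aRG and 91.2 to 103 in bRG, and they summed to 50.8 to 64.9 in bIP and 42.8 to 57.1 in neurons. The 5 GABAergic markers summed to 55.2 to 115 CPM over all libraries, the 4 mesenchyme markers to 25.5 to 59.6, the 4 oligodendrocyte and astrocyte markers to 19.0 to 31.1, the 3 of choroid plexus and hem to 12.5 to 36.0 and the 2 of pluripotent cells to 1.38 to 4.24. None of the 37 measured markers was at 0 in any library, so the promoters of genes of other lineages gave signal in every group. In sorted bulk material, fewer cells of a type and less open chromatin per cell cannot be told apart.

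In the step from radial glia to intermediate progenitors, the promoter of MYT1L opened and that of REST lost accessibility, and from intermediate progenitors to neurons most distal regions of MYT1L and ST18 rose. Of the 37 regions, 10 rose and 3 fell from aRG to bIP, where 44.9% of all 200931 tested regions changed (24% higher, 20.9% lower). The same comparison gave 10 higher and 5 lower with DESeq2 size factors, 11 and 6 with loess scaling, and 9 and 6 with no filter on low counts. From bIP to N, 22 rose and 7 fell, against 55.2% changed among all regions (28.8% higher, 26.4% lower). From aRG to N, 28 rose and 7 fell, against 66.4% of all regions (37.1% higher, 29.2% lower), with a median log2 difference of 1.62 among the 37 and 0.18 among all regions. Against bRG, 12 rose and 2 fell in bIP (36.5% of all regions changed, 20.4% higher and 16.1% lower), and 27 rose and 5 fell in N (58.1%, 32.2% higher and 25.8% lower). The comparisons share groups with each other, so the 5 counts are not independent. No region of the 37 passed between bRG and aRG, and neither did any other region (0%).

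**Figure D1:**
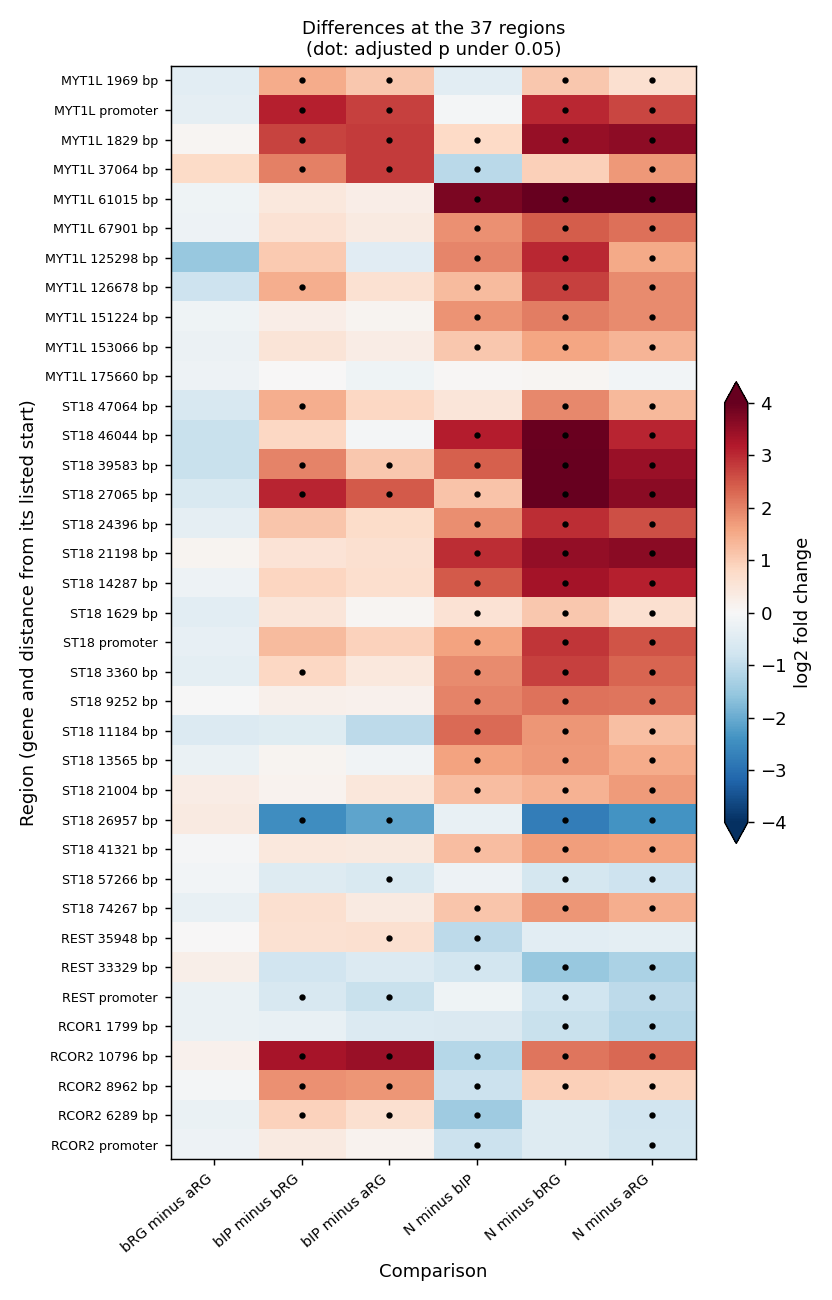
Log2 fold change (colour, from the edgeR model) at each of the 37 regions (rows, named by gene and distance) in the 6 comparisons (columns), with a dot where the adjusted p was under 0.05. The bRG minus aRG column has no dot, and the N minus aRG column has 35.

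The MYT1L promoter (chr2A:18434719-18436294, gorGor6) was far less accessible in both kinds of radial glia than in both later cell types. Its libraries held 6.20, 5.74 and 8.23 CPM in aRG and 5.66 and 6.13 in bRG. In bIP they held 45.2, 40.1, 35.6, 49.5 and 57.9 CPM, and in N 47.7, 38.8, 32.7 and 53.9. Every bIP and every N library lay above every radial glia library, and the bIP and N ranges overlapped. The log2 difference was 2.74 ± 0.21 (SE) from aRG to bIP (adjusted p = 5.9e-10) and 2.66 ± 0.21 from aRG to N (adjusted p = 9.2e-11). It was 3.10 ± 0.26 from bRG to bIP and 3.02 ± 0.26 from bRG to N. Between bIP and N the difference was -0.09, with a 95% interval of -0.42 to 0.25, and loess scaling turned it to 0.28 (adjusted p = 0.015). Among 19305 genes, each represented by its most accessible promoter region, MYT1L ranked 152nd for its rise from aRG to bIP and 72nd from bRG to bIP. From aRG to N it ranked 548th. Per kb of region its level moved from the 31.8th percentile of promoters in aRG to the 94.9th in bIP and the 95.7th in N.

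**Figure D2:**
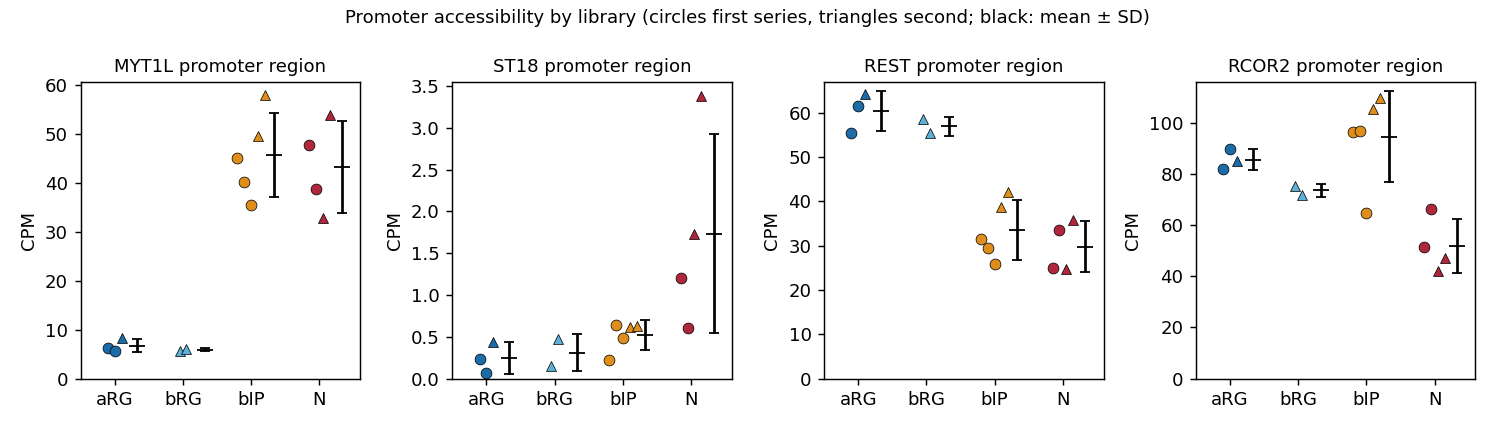
CPM (y axis, linear from 0, each panel with its own scale) of the promoter regions of MYT1L, ST18, REST and RCOR2 in each library by cell type, with mean ± SD in black. All MYT1L values in bIP and N lie at 32.7 CPM or more, all in aRG and bRG at 8.23 or less, and the REST panel runs the other way.

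The 10 distal MYT1L regions fell into several patterns. The nearest, 1829 bp away on the side of higher positions in both genomes (chr2A:18436635-18437014), opened with the promoter and went on rising. It held 0.790, 0.873 and 1.27 CPM in aRG, 0.909 and 1.31 in bRG, 6.16, 6.86, 5.82, 6.63 and 8.64 in bIP and 11.2, 13.2, 8.02 and 15.0 in N. The bIP and N ranges overlapped, and both lay above all radial glia libraries. Its log2 difference was 2.79 ± 0.27 from aRG to bIP (adjusted p = 7.7e-09) and a further 0.79 ± 0.19 from bIP to N (adjusted p = 0.0012), of which the second series alone gave 0.59 (adjusted p = 0.13). On the other side, the region at 1969 bp rose by 1.08 ± 0.21 from aRG to bIP (adjusted p = 0.00016). It was 0.65 ± 0.22 above aRG in N (adjusted p = 0.012), a call lost when any one of N replicates 1, 3 and 4 or aRG replicates 2 and 3 was left out.

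A region 37064 bp away (chr2A:18471888-18472807) was most open in bIP. Its values were 0.553, 0.312 and 0.735 CPM in aRG, 0.808 and 0.655 in bRG, 4.80, 4.85, 3.12, 3.40 and 2.75 in bIP, and 2.69, 2.31, 1.01 and 1.17 in N. Every N library lay below every bIP library and above every aRG library. It rose by 2.79 ± 0.34 from aRG to bIP (adjusted p = 1.9e-07) and fell by 1.07 ± 0.26 from bIP to N (adjusted p = 0.00094), while the MYT1L promoter did not pass the test in that last step. Its difference between N and aRG was 1.72 ± 0.36 over all libraries (adjusted p = 0.00014) and 0.56 in the second series alone (adjusted p = 0.42).

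A further 6 regions, from 61015 to 153066 bp away on the side of higher positions, passed the test from bIP to N and not from aRG to bIP. Each was higher in N, and 28.8% of all regions rose in that step. The region at 126678 bp was also called higher in bIP than in bRG. Its bIP libraries, at 0.794 to 1.25 CPM, lay above all aRG (at most 0.748) and bRG libraries (at most 0.515). The most changed of the 6 was at 61015 bp (chr2A:18495818-18496496). It held 0.355, 0.312 and 0 CPM in aRG, 0.152 and 0.234 in bRG, 0.416, 0.323, 0.208, 0.133 and 0.241 in bIP, and 3.23, 2.72, 2.30 and 6.47 in N. The radial glia and bIP values rest on 0 to 11 counts a library and the N values on 40 to 138. The difference between N and bIP was 3.76 ± 0.41 (adjusted p = 3.2e-08), and that between N and aRG was 4.02 ± 0.52 (adjusted p = 2.5e-07), or 3.31 without aRG replicate 3 and 4.66 without aRG replicate 1. Against bRG it was 4.18, or 3.13 without N replicate 4. The region at 125298 bp rose by 1.95 ± 0.34 from bIP to N (adjusted p = 2.4e-05) and that at 67901 bp by 1.84 ± 0.43 (adjusted p = 0.00071). The value at 67901 bp was 1.14 without N replicate 4, its difference to aRG went from 2.204 to 1.42, and its difference to bRG, 2.41 over all libraries, was then 0.94 (adjusted p = 0.18). The other 3 rose by 1.07 to 1.79 in that step. Mean levels of the 6 regions in N were low, between 1.40 and 3.68 CPM.

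The most accessible distal region of MYT1L did none of this. At 175660 bp (chr2A:18609858-18611084) it held 22.9 ± 1.05 CPM (SD) in apical and 19.9 ± 1.48 in basal radial glia, 20.4 ± 3.41 in bIP and 21.1 ± 5.38 in N, and no comparison passed. The interval of the log2 difference from aRG to N was -0.52 to 0.30. Loess scaling turned that difference to 0.33 (adjusted p = 0.0091), and gave 0.44 from bIP to N. A further 31 regions near MYT1L are listed under its antisense gene MYT1L-AS1 and are not counted here. Of these, 14 rose and 8 fell from aRG to N, where 37.1% of all regions rose and 29.2% fell. The files give no strand, so upstream and downstream were not told apart, and a region is tied to a gene only by distance.

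**Figure D3:**
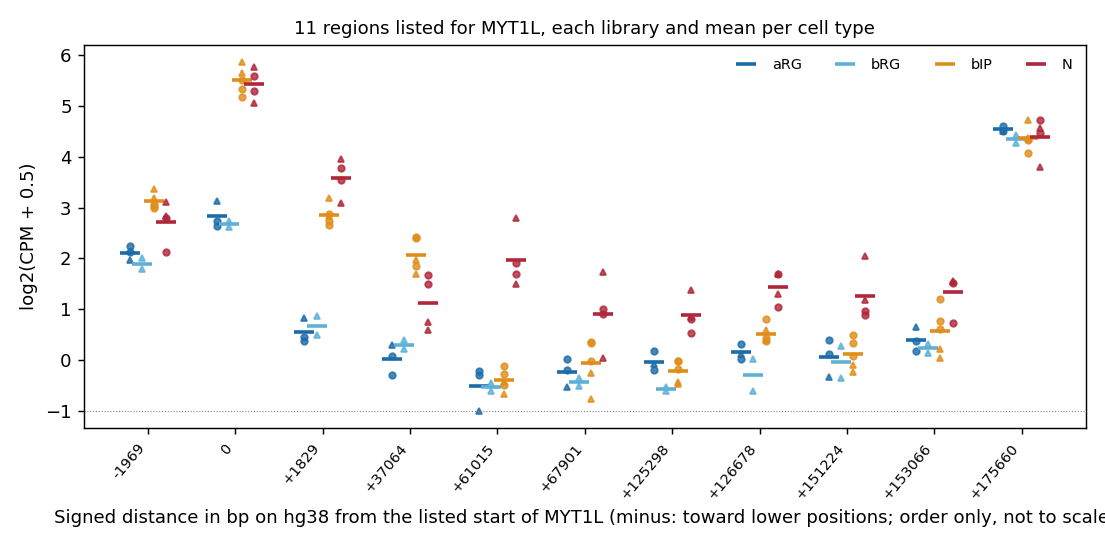
Accessibility as log2(CPM + 0.5) of the 11 MYT1L regions (x axis, signed distance from the listed start on hg38, in order and not to scale) in each library, with the mean of each cell type as a bar. At the start and at +1829 bp all bIP and N libraries lie above radial glia. From +61015 to +153066 bp the mean is highest in N, with N and bIP libraries overlapping at +67901 and +153066 bp, and at +175660 bp no comparison passed.

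None of the 14 regions listed for MYT1, its promoter included, has a gorilla position, so the gene was not analysed here. They belong to a run of 98 consecutive regions, spanning 868 kb to the last listed region of human chromosome 20, that all lack a gorilla position. Of these 98, 96 have a chimpanzee position.

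ST18, the third family member, rose at most of its regions between intermediate progenitors and neurons. From bIP to N, 15 of its 18 regions rose and none fell, where 28.8% of all regions rose and 26.4% fell. The median log2 difference was 1.62 against -0.02 over all regions. From aRG to bIP, 2 rose and 2 fell, where 24% of all regions rose and 20.9% fell. From aRG to N, 16 rose and 2 fell, where 37.1% of all regions rose and 29.2% fell. The rising regions lay on both sides of the gene's listed start, from 47064 bp on the side of lower human positions to 74267 bp on the other.

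The ST18 promoter region (chr8:62326012-62326366, 661 bp from the listed start) was small and weak. It held 0.237, 0.0623 and 0.441 CPM in aRG, 0.152 and 0.468 in bRG, 0.227, 0.647, 0.485, 0.618 and 0.627 in bIP, and 1.21, 0.611, 1.73 and 3.38 in N. N lay above all radial glia libraries, while its lowest library lay within the bIP range. The difference was 2.53 ± 0.47 between N and aRG (adjusted p = 4.3e-05) and 1.62 ± 0.36 between N and bIP (adjusted p = 0.00044), and 0.91 ± 0.51 between bIP and aRG did not pass (adjusted p = 0.16). Against bRG the difference in N was 2.87, or 3.89 without bRG replicate 2 and 2.27 without N replicate 4. Even in N its level per kb was at the 35.8th percentile of promoters.

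The most accessible ST18 region, at 3360 bp (chr8:62320186-62321979), held 2.01, 2.12 and 5.39 CPM in aRG, 3.79 and 3.51 in bRG, 2.72, 2.13, 4.02, 6.80 and 6.61 in bIP, and 12.9, 11.3, 15.7 and 29.5 in N. Every N library was above every library of the other groups. It rose by 1.90 ± 0.20 from bIP to N (adjusted p = 1.8e-08). Its difference of 0.84 between bIP and bRG (adjusted p = 0.022) was lost without bIP replicate 4 or either bRG replicate. The region at 27065 bp (chr8:62357122-62358613) moved earlier. It held 0.711, 0.935 and 1.67 CPM in aRG, 1.06 and 1.08 in bRG, 4.08, 4.27, 5.62, 7.20 and 10.0 in bIP, and 11.8, 7.60, 14.7 and 26.0 in N. All bIP libraries were above all radial glia libraries. It rose by 2.45 ± 0.27 from aRG to bIP (adjusted p = 5.4e-08) and by a further 1.15 ± 0.20 to N (adjusted p = 2e-05).

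The region at 39583 bp took a similar course, with 1.09 ± 0.35 from aRG to bIP (adjusted p = 0.012, lost without aRG replicate 2 or 3) and 2.38 ± 0.26 from bIP to N (adjusted p = 2.6e-08). It was 4.35 above bRG in N, or 3.64 without N replicate 4. The region at 21198 bp (chr8:62351212-62352099) held 0.434, 0.374 and 0.539 CPM in aRG, 0.556 and 0.515 in bRG, 0.718, 0.776, 0.901, 0.398 and 0.869 in bIP, and 4.99, 4.82, 3.70 and 9.57 in N. It rose by 2.97 ± 0.29 from bIP to N (adjusted p = 4.3e-09), and its difference to bRG of 3.50 was 2.75 without N replicate 4. At 46044 bp the rise from bIP to N was 3.13 ± 0.43 (adjusted p = 9.8e-07), with N libraries at 1.64, 1.29, 2.30 and 7.92 CPM. Without N replicate 4 it was 2.43, and its difference to aRG went from 3.06 to 2.28 and that to bRG from 3.95 to 2.77. The region at 14287 bp rose by 2.46 ± 0.36 (adjusted p = 2.8e-06), and without N replicate 4 its difference to aRG went from 3.12 to 2.42 and that to bRG from 3.33 to 2.31.

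A pair of ST18 regions went the other way. At 26957 bp (chr8:62297441-62298341) the libraries held 3.00, 2.93 and 4.51 CPM in aRG, 5.00 and 5.95 in bRG, 0.718, 0.711, 1.04, 1.15 and 0.483 in bIP, and 0.545, 0.407, 1.30 and 0.516 in N. The lowest radial glia library was above every bIP and N library. It fell by 2.11 ± 0.29 from aRG to bIP (adjusted p = 1.6e-06) and by 2.47 ± 0.35 from bRG to bIP (adjusted p = 4.2e-06), while the difference of 0.37 between bRG and aRG did not pass. The drop from bRG to N was -2.76, or -3.41 without N replicate 3. At 57266 bp the region fell by 0.82 ± 0.23 from aRG to N (adjusted p = 0.003). Its fall of 0.61 from aRG to bIP was lost without aRG replicate 1 or bIP replicate 2, and that from bRG to N without either bRG replicate.

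N replicate 4 had the highest value of the N libraries in 14 of the 18 ST18 regions and in 8 of the 11 MYT1L regions. Its cortical neuron marker sum was 216 CPM, the highest of the 4, and its radial glia sum of 92.0 CPM was the highest too. The median log2 ratio of the second series to the first within N was 0.88 over the ST18 regions and 0.23 over those of MYT1L. Without N replicate 4, 14 ST18 regions still rose from bIP to N, with a median of 1.30, and 7 MYT1L regions did. Over all regions, 103412 of 200341 were then called in either direction. Within the first series alone 14 ST18 regions rose and within the second 13. Those fits called 102117 of 192990 and 92805 of 201113 regions in either direction. The cortical neuron marker sums were higher in bIP and N than in radial glia, as at the MYT1L promoter, and their part in that difference was not tested. Between bIP and N, where most ST18 regions rose, 1 of the 5 markers rose and 1 fell.

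**Figure D4:**
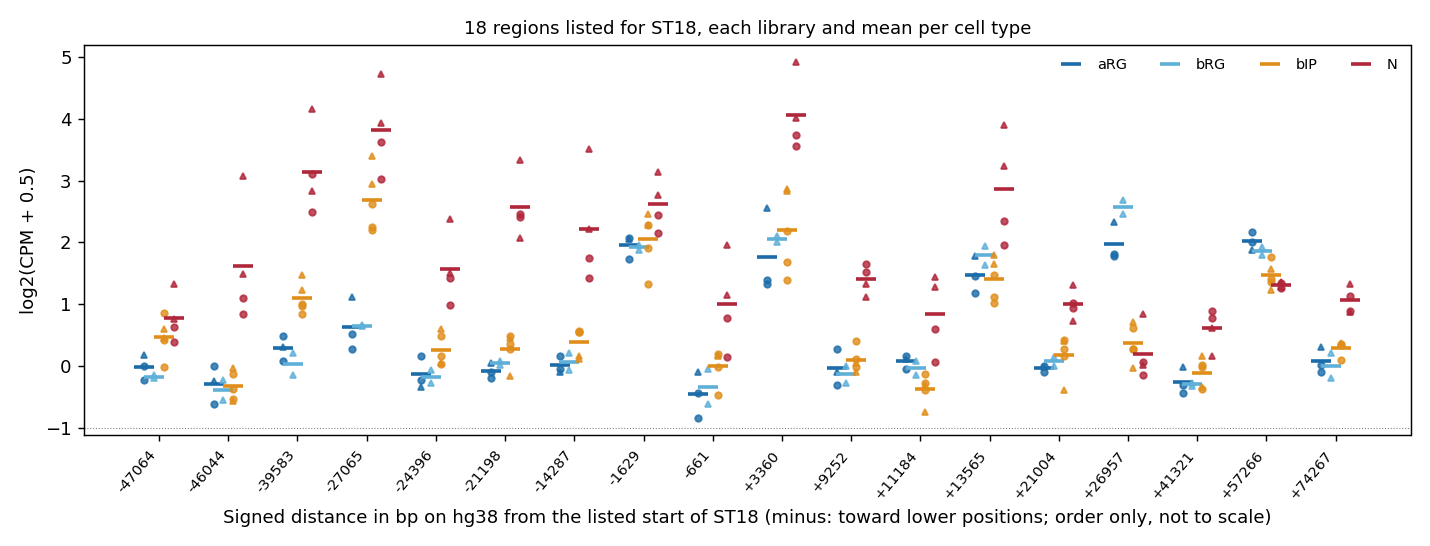
Accessibility as log2(CPM + 0.5) of the 18 ST18 regions in each library, arranged as in the plot of MYT1L regions, with the mean of each cell type as a bar. N is highest at most positions, bIP is next to it at -27065 bp, and the position +26957 bp is high in aRG and bRG alone.

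The REST promoter (chr4:61309550-61312149) lost accessibility between radial glia and intermediate progenitors, and was 2.08-fold lower in neurons than in aRG. Its libraries held 55.5, 61.5 and 64.1 CPM in aRG and 58.5 and 55.3 in bRG. In bIP they held 31.6, 29.4, 25.9, 38.7 and 42.1 CPM and in N 25.0, 33.6, 24.7 and 35.8. All radial glia libraries lay above all bIP and N libraries. The promoter fell by 0.88 ± 0.17 on the log2 scale from aRG to bIP (adjusted p = 0.00011) and by 1.06 ± 0.18 from aRG to N (adjusted p = 1.2e-05). The first of these was -0.998 in the first series alone and -0.67 in the second (adjusted p = 0.14). The fall of 0.63 ± 0.21 from bRG to bIP (adjusted p = 0.019) was lost without either bRG replicate and in the second series alone, and that of 0.81 ± 0.21 from bRG to N had an adjusted p of 0.002. Between bIP and N the difference was -0.18 (interval -0.51 to 0.14), and loess scaling turned it to 0.16 (adjusted p = 0.018). Promoters in general lost accessibility relative to distal regions, with a median over 19305 promoters of -0.16 from aRG to bIP and -0.26 from aRG to N. Under loess scaling, the REST promoter still fell by 0.67 and 0.51 in these comparisons. Among the 19305 promoters it ranked 1597th from the lowest from aRG to bIP and 2627th from aRG to N. In these comparisons 18.3% and 35.3% of promoters were called lower.

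Both distal REST regions lie on the side of lower human positions. At 35948 bp (chr4:61353408-61354665) the libraries held 13.7, 16.2 and 13.1 CPM in aRG, 12.5 and 10.8 in bRG, 25.6, 21.9, 23.3, 14.9 and 23.3 in bIP, and 14.6, 13.4, 6.38 and 8.25 in N. Of the 5 bIP libraries, 4 were above all others, and bIP replicate 4 lay within the aRG range. This region rose by 0.63 ± 0.19 from aRG to bIP (adjusted p = 0.0093), opposite to the promoter, and fell by 1.03 ± 0.18 from bIP to N (adjusted p = 2.5e-05). The rise was lost without aRG replicate 1 (0.52) or aRG replicate 2 (0.49), with no series term (0.61) and with no filter on low counts (0.49). It was 0.68 in the first series alone and 0.55 in the second, which holds only replicate 3 of aRG. The fall held within each series (-0.74 and -1.39). At 33329 bp (chr4:61350787-61351130) the region was weaker, with 2.43 ± 0.895 CPM in apical and 1.69 ± 0.253 in basal radial glia, 1.65 ± 0.871 in bIP and 0.862 ± 0.17 in N. It fell by 1.27 ± 0.31 from aRG to N (adjusted p = 0.00084), and by 0.90 in the second series alone (adjusted p = 0.17). Its step from bIP to N (-0.72, adjusted p = 0.036) was lost without N replicate 1 or 2 or bIP replicate 1, 3 or 5, and was -0.06 in the second series alone.

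RCOR1, the founding CoREST scaffold, kept 1 of its 5 regions. The other 4, among them the promoter, lie in a stretch of 31.5 kb on human chromosome 14 without gorilla positions. The region left, at 1799 bp (chr14:83338678-83339316), held 2.05, 2.43 and 1.47 CPM in aRG, 1.01 and 1.69 in bRG, 1.47, 1.55, 1.39, 1.10 and 1.06 in bIP, and 0.974, 0.747, 0.912 and 0.703 in N. Every N library was below every other library. It fell by 1.14 ± 0.28 from aRG to N (adjusted p = 0.001), or by 0.87 in the second series alone (adjusted p = 0.18). The fall of 0.88 from bRG to N (adjusted p = 0.032) was -0.46 without bRG replicate 2 (adjusted p = 0.44).

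RCOR2, a CoREST scaffold of neural progenitors, had its highest mean in bIP at every region. All 4 of its regions fell from bIP to N, where 26.4% of all regions fell, and its 3 distal regions rose from aRG to bIP, where 24% of all regions rose. The promoter (chr11:47908405-47912124) held 81.9, 89.9 and 85.2 CPM in aRG, 75.5 and 71.7 in bRG, 96.2, 96.9, 64.6, 105 and 110 in bIP, and 51.5, 66.5, 42.1 and 47.2 in N. All N libraries were below all radial glia libraries, and the N and bIP ranges overlapped through bIP replicate 3. It fell by 0.87 ± 0.17 from bIP to N (adjusted p = 0.00011) and by 0.73 ± 0.19 from aRG to N (adjusted p = 0.0016). Loess scaling gave -0.57 for the first (adjusted p = 1e-06) and -0.094 for the second (adjusted p = 0.3), so the fall from aRG rests on the scaling. The difference of 0.14 between bIP and aRG did not pass (adjusted p = 0.57), but loess scaling gave 0.48 (adjusted p = 2.7e-05), so this result rests on the scaling too. That of -0.51 between N and bRG did not pass either (adjusted p = 0.06), though it did with DESeq2 (-0.59, adjusted p = 0.041).

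The RCOR2 region at 10796 bp (chr11:47897355-47898601) showed the largest rise from aRG to bIP among the 37 regions. It held 1.34, 1.62 and 2.79 CPM in aRG, 2.68 and 3.00 in bRG, 15.9, 14.4, 17.3, 26.7 and 35.5 in bIP, and 9.12, 9.30, 9.26 and 11.3 in N. The 3 levels did not overlap: radial glia at 3.00 or less, N at 9.12 to 11.3 and bIP at 14.4 or more. It rose by 3.46 ± 0.24 from aRG to bIP (adjusted p = 4e-10) and fell by 1.15 ± 0.18 from bIP to N (adjusted p = 6.1e-06). The rise was 3.45 within the first and 3.47 within the second, and the fall -0.77 and -1.60.

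At 6289 bp (chr11:47901499-47903109) the values were 21.6, 21.7 and 17.5 CPM in aRG, 15.6 and 17.0 in bRG, 32.0, 30.4, 24.1, 33.9 and 37.5 in bIP, and 12.7, 13.99, 12.0 and 8.44 in N. Here N lay below radial glia as well as below bIP. It fell by 1.43 ± 0.17 from bIP to N (adjusted p = 1.4e-07) and by 0.78 ± 0.19 from aRG to N (adjusted p = 0.00095, or 0.08 under loess scaling). Its rise of 0.65 ± 0.19 from aRG to bIP (adjusted p = 0.0052) was lost without aRG replicate 2 or 3 or bIP replicate 4. At 8962 bp the region rose by 1.77 ± 0.28 from aRG to bIP (adjusted p = 9.7e-06) and fell by 0.87 ± 0.23 from bIP to N (adjusted p = 0.0024), a fall of 0.43 in the first series alone (adjusted p = 0.087). It was still 0.89 above aRG in N, a call lost without aRG replicate 2, or without replicate 3 (0.58). Its difference of 0.97 to bRG was lost without N replicate 3 or bRG replicate 2. The intermediate progenitor marker sum moved with these regions, and its part in them was not tested.

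**Figure D5:**
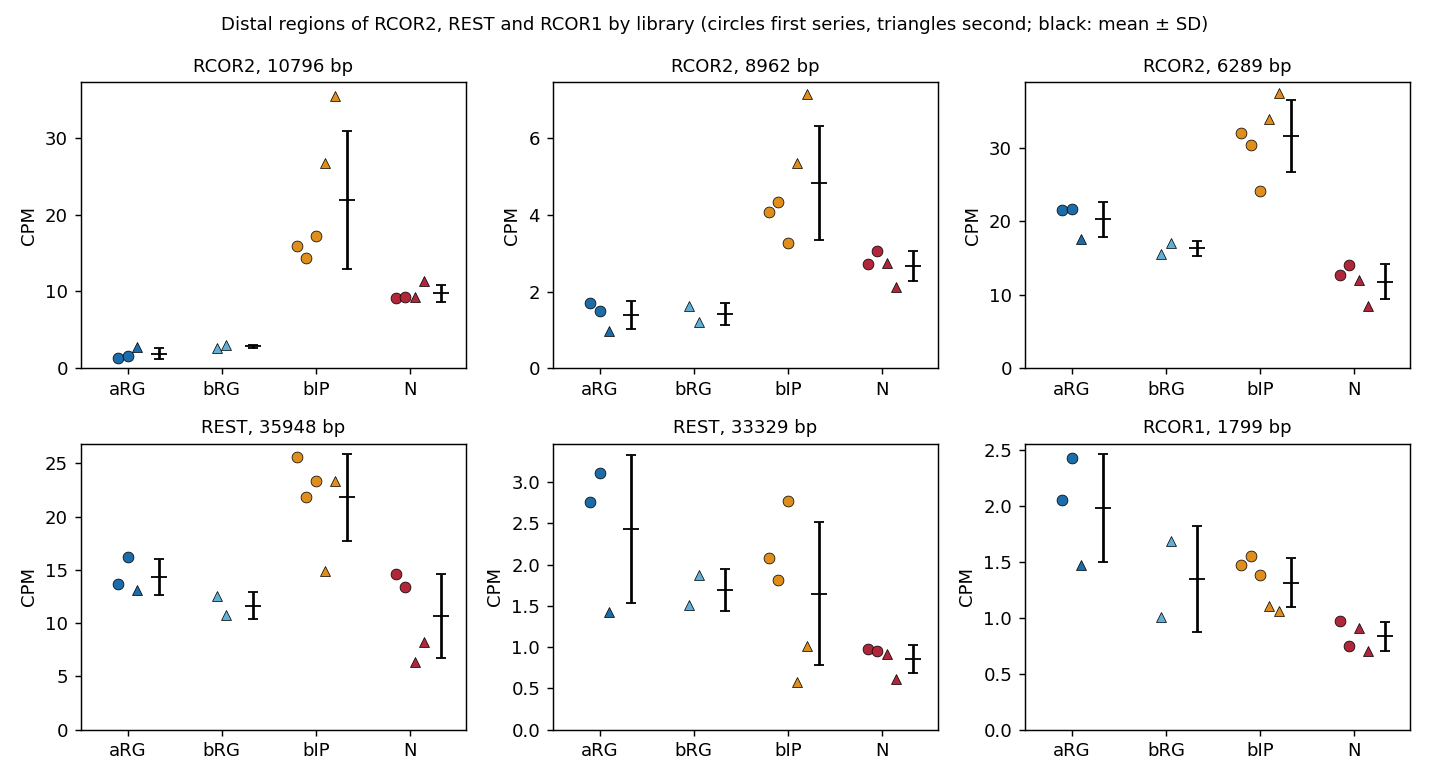
CPM (y axis, linear from 0, each panel with its own scale) of the 3 distal RCOR2 regions, both distal REST regions and the RCOR1 region in each library by cell type, with mean ± SD in black. RCOR2 regions and the REST region at 35948 bp are highest in bIP, and the other REST region and the RCOR1 region have their lowest mean in N.

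Between basal and apical radial glia no region passed in the edgeR fit over all 14 libraries with the series term, while 8193 of 200931 regions (4.08%) had an unadjusted p under 0.05 and DESeq2 called 7, none of them among the 37. Over all regions, edgeR called 11 without aRG replicate 3, 307 with the replicate block and 1127 with the 2 groups alone. The promoter differences between bRG and aRG were -0.36 ± 0.26 for MYT1L, -0.34 ± 0.70 for ST18, -0.25 ± 0.23 for REST and -0.22 ± 0.25 for RCOR2. Their intervals ran from -0.90 to 0.17 for MYT1L and from -0.73 to 0.23 for REST.

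Per kb of region, the promoters of REST and RCOR2 stood furthest apart in bIP. In aRG they had 23.2 and 23.0 CPM per kb, at the 82.3rd and the 82.0th percentile of promoters, against 4.26 for MYT1L and 0.695 for ST18. In bRG, REST had 21.9 and RCOR2 19.8 CPM per kb, MYT1L 3.74 and ST18 0.873. In bIP, MYT1L led with 29.0 CPM per kb, followed by RCOR2 with 25.4, REST with 12.9 and ST18 with 1.47. In N the order was MYT1L with 27.5, RCOR2 with 13.9, REST with 11.4 and ST18 with 4.88.

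Over the 14 libraries and 10099 protein-coding promoters, the profiles most like that of MYT1L belonged to DEPP1 (Pearson's r = 0.991 on log2 CPM), CELF3, an RNA-binding protein of neurons (0.987), and APOBEC4 (0.985). CELF3 had 12.8 ± 2.45 CPM in apical and 11.7 ± 1.59 in basal radial glia, 37.0 ± 6.61 in bIP and 38.1 ± 6.87 in N. Those most like REST were FOXJ1, a regulator of motile cilia (0.991), PDGFC (0.989) and KAZN (0.986). For RCOR2 they were KCTD8 (0.974), IRAK1BP1 (0.964) and GSN (0.961), and for ST18 they were FAM216B (0.945), KERA (0.922) and RIT2 (0.901). These are descriptions across libraries that fall into 4 cell types, and libraries share group, depth and series.

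Few promoters of the partners of REST and MYT1L in repression changed before the neuron stage. Of 15 measured corepressor complex genes, none rose and 7 fell from aRG to N, with a median of -0.44 against -0.26 over all promoters, of which 35.3% fell. CTDSP1, a phosphatase recruited by REST, fell by 0.96 ± 0.18 (adjusted p = 3.5e-05). HDAC1, the deacetylase, fell by 0.81 ± 0.17 (adjusted p = 0.0002), and RCOR3, the third CoREST scaffold, by 0.61 ± 0.19 (adjusted p = 0.0061). From aRG to bIP, CTDSP1 alone passed, at -0.48, where 18.3% of promoters fell.

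Of 4 genes that act on REST splicing or stability, 2 rose and none fell from aRG to bIP, where 10.7% of promoters rose and 18.3% fell. From aRG to N, 2 rose and BTRC, a subunit of a ubiquitin ligase that marks REST for degradation, fell by 0.43 ± 0.18 (adjusted p = 0.045), where 16.3% rose and 35.3% fell. SRRM4, a neural splicing factor that diverts REST to a truncated form, went from 16.4 ± 1.57 CPM in aRG to 60.0 ± 10.1 in bIP and 44.0 ± 8.28 in N. It rose by 1.86 ± 0.19 from aRG to bIP (adjusted p = 2e-08) and fell by 0.45 ± 0.16 from bIP to N (adjusted p = 0.021). SRRM3, its relative, rose by 0.84 ± 0.19 from aRG to bIP (adjusted p = 0.00057). BTRC, part of a ubiquitin ligase that marks REST for destruction, and USP7, which removes ubiquitin, did not pass in that step (-0.32 and -0.10).

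Among 19 measured genes known as REST targets in neurons, 10 rose and 3 fell from aRG to bIP, where 10.7% of promoters rose and 18.3% fell. From aRG to N, 13 rose and 2 fell, with a median of 1.15, where 16.3% of promoters rose and 35.3% fell. GRIN1, a subunit of the NMDA receptor, went from 3.88 ± 1.07 CPM in aRG to 8.89 ± 0.735 in bIP and 31.9 ± 7.79 in N (log2 3.03 ± 0.24 from aRG to N, adjusted p = 7.6e-11). UNC13A, a priming factor of synaptic vesicles, rose by 1.84 ± 0.20 from aRG to N. SLC12A5, the neuronal chloride exporter, rose by 2.41 ± 0.23 from bIP to N (adjusted p = 3.5e-09). NPPA, a heart hormone gene with a REST site, had the largest rise of the list from aRG to bIP, 3.15 ± 0.27 (adjusted p = 1.5e-09), and fell by 1.06 ± 0.21 from bIP to N. The 2 that fell from aRG to N, named after their values were seen, were CALB1 (-0.62) and CELSR3 (-1.30).

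The 7 measured Notch pathway and progenitor genes, a group with known MYT1L targets, gave 0 higher and 5 lower from aRG to bIP, where 18.3% of promoters fell, and 0 higher and 6 lower from aRG to N, where 35.3% fell. HES1, the repressor that keeps progenitors undifferentiated, fell by 1.05 ± 0.18 from aRG to bIP (adjusted p = 2.4e-05) and by 2.10 ± 0.19 from aRG to N (adjusted p = 9.5e-10). SOX2, a stem cell factor, fell by 0.90 ± 0.16 and 2.71 ± 0.18 in these comparisons. HES1 and SOX2 also stand among the radial glia markers, and STMN2 stands among both the REST targets and the cortical neuron markers. These lists were drawn up with earlier results of the same data known.

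The deposited peak sets, 1 per cell type, could be set against the 26 regions off chromosome 2A, taking their coordinates to be gorGor6, which the sources used here do not state. The N set touched 11 of them, the bIP set 10, and the aRG and bRG sets 9 each. For comparison, a deposited peak lay on 63.4% of 186885 regions, and on 11.6% once positions were displaced by 50 kb. This drop was the ground for taking gorGor6. The 63.4% is not split by set, so the count of a single set has no background share here. The ST18 regions at 21198 and 14287 bp had a peak in the N set alone, those at 26957 and 57266 bp in the aRG and bRG sets, and the RCOR2 region at 10796 bp in the bIP and N sets. The RCOR1 region and the REST region at 33329 bp had a peak in the aRG set alone. The ST18 region at 13565 bp, named after its values were seen, had a peak in the bRG and bIP sets and none in N, although its mean was 7.81 CPM in N against 2.98 in bRG and 2.21 in bIP. Each cell type has 1 deposited set, so presence and absence carry no error, and the cell types differ in number and depth of libraries.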

How the data were processed

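Read counts per region for 14 libraries were taken as the authors deposited them, in a table of 218080 regions built on hg38 and carried to panTro6 and gorGor6. The notes of the submitters on processing name bcl2fastq (2.20.0) and MACS2. No aligner is named. The deposited score of distance is in bp from 1 point per gene on hg38. The deposited peak sets carry a score, a fold (ratio) over background and −log10 p and q values, set by the authors' peak caller. Regions without a gorilla position (13823) and 8 repeats were left out. Accessibility was tested with edgeR 4.0.16 in R 4.3.3 (quasi-likelihood test, TMM scaling, library series as covariate, all 14 libraries), with Benjamini-Hochberg adjustment over the 200931 regions that passed the filter on low counts, at 0.05. All 37 regions passed it. Differences are log2 ± SE, and levels are CPM ± SD. Intervals are at 95%, and the floor covers counting error only. On simulated counts for N against bIP (200931 regions), 73 of 100 2-fold and 100 of 100 4-fold changes were recovered, with 9 false calls. The changed regions were drawn only from those above a set mean count, and no series effect was simulated. The recovery rates therefore do not apply to weak regions such as the ST18 promoter and most distal MYT1L regions. Regions named were the promoters, the distal regions with the largest called change per gene and direction, and, chosen after values were seen, the remaining regions given a value. The members, gene lists and tests were chosen with earlier results of these data known. Alternatives were DESeq2 1.42.0, its size factors, loess offsets, other filters, other designs, summing the closest pairs and leaving out each library.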

Additional observations from a re-analysis of the deposited data

Results flagged for a closer look

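Within a cell type, 4 of 52 sets of at least 4 libraries examined held 1 library far from the others, where chance gives about 1 in 20. All 4 were in N. At the RCOR2 region at 10796 bp, N replicate 4 had 11.3 CPM, and the nearest library had 9.30. At the REST region at 33329 bp, N replicate 4 was lowest with 0.610 CPM, and the nearest had 0.912. N replicate 4 was highest at the ST18 region at 46044 bp, with 7.92 CPM against 2.30 for the nearest. N replicate 3 was highest at the ST18 region at 26957 bp, with 1.30 CPM against 0.545.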

How the results depend on the processing

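Of the alternative values on promoters and counts of called regions, 494 were classed as unchanged. Another 12 gained a call, 5 lost one, 2 were reversed and 5 counts moved further. An unchanged value kept its side of the threshold, but its sign could change where it was not called, and a count could move within a set ratio. A filter of at least 10 CPM in 2 libraries left for testing only 3 regions each of MYT1L, ST18 and RCOR2 and 2 of REST. Of these it called 7 from aRG to bIP, 9 from aRG to N, 7 from bRG to bIP, 8 from bRG to N and 9 from bIP to N. Among all 44039 regions left by this filter, 28859, 33836, 25409, 32124 and 29806 were called in the same order. Leaving out 1 library gave 10 to 15, 31 to 35, 10 to 15, 28 to 34 and 27 to 31 calls in the same order. With the closest pairs summed, edgeR called 10 from aRG to bIP, 33 from aRG to N and 13 from bRG to bIP. From aRG to bIP it lost RCOR2 at 6289 bp (adjusted p = 0.101), REST at 35948 bp (0.17) and ST18 at 39583 bp (0.052). From aRG to N it lost MYT1L at 1969 bp (0.098) and RCOR2 at 8962 bp (0.055), and gained REST at 35948 bp (0.034). Loess scaling turned the MYT1L promoter from bIP to N to 0.28, the REST promoter from bIP to N to 0.16 and the MYT1L region at 175660 bp from aRG to N to 0.33. It gave the RCOR2 promoter 0.48 from aRG to bIP and 0.35 from bRG to bIP, both now called. From aRG to N it gave that promoter -0.094, no longer called. The RCOR2 promoter from bRG to bIP was 0.54 with the 2 groups alone. From bRG to N it passed with DESeq2 (-0.59), the 10 CPM filter (-0.39), loess scaling (-0.22), no filter (-0.65), no series term (-0.51), the second series alone (-0.73) and the 2 groups alone (-0.84), and ranged from -0.61 to -0.47 with 1 library left out. The REST promoter in the second series alone was -0.67 from aRG to bIP and -0.49 from bRG to bIP, neither called, and from bRG to bIP ranged from -0.77 to -0.58 with 1 library left out. The cause of these shifts was not tested. Libraries with the same number did not deviate together in every pair (aRG and N replicate 3, r = -0.018), so numbers were not taken to pair them. The replicate block gave -0.43 for the RCOR2 promoter from bRG to N, now called, turned the ST18 region at 3360 bp from bRG to bIP to -0.60, and called 307 regions between bRG and aRG, where the main design called 0 and the 2 groups alone 1127. The second series alone called 49477 regions from aRG to bIP against 90251. DESeq2 size factors moved the median over all regions from aRG to N from 0.18 to 0.05. Among single distal regions and other values, 79 alternatives lost a call and 52 gained one. With promoters at up to 2000 bp, 8 regions counted as promoters. Depth limits the weakest regions, where a floor of 3 counts was up to 0.208 CPM.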

Other observations

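The spacing of the regions was compared across genomes. Of 32 intervals between neighbouring regions of a gene, 30 differed by at most 500 bp between hg38, panTro6 and gorGor6. Between the ST18 regions at 14287 and 1629 bp the interval was 11724 bp in hg38, 16442 bp in panTro6 and 16427 bp in gorGor6. Between the REST region at 33329 bp and the REST promoter it was 32724 bp in hg38, 36971 bp in panTro6 and 38637 bp in gorGor6. Region lengths differed from hg38 by at most 28 bp in gorGor6 and 83 bp in panTro6. A position gap of this kind describes the assemblies and says nothing of accessibility.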
